A study of Mus musculus with 5 samples.

Results

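Il1a, Il1b, Il1rn and Il18 are 4 genes of the interleukin 1 (IL-1) family, taken by their symbols from a table of 13339 genes, and all 4 were listed there. They were measured by sequencing the RNA of macrophages derived from mouse bone marrow, phagocytes grown from the marrow of 8-week-old C57BL/6 mice for 5 days with the growth factor M-CSF. Lipopolysaccharide (LPS), a component of bacterial walls that TLR4 recognises, was given at 100 ng/ml for 4, 8, 12 or 24 h, and the remaining group was sampled at 0 h. Each of the 5 times was 1 library, all titled as wild type with the same number, and the labels do not say what that number stands for or how many mice were used. With 1 library per time no spread could be estimated and no test between times was possible, so every difference below is between libraries. No cells kept without LPS for 4 to 24 h were analysed, so hours in LPS and hours in culture cannot be told apart.

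IL-1 alpha and IL-1 beta, the products of Il1a and Il1b, are agonists that act on the same receptor chain, IL-1R1, and cause fever and leukocyte recruitment. Macrophages make IL-1 beta as an inactive precursor after TLR signals, and an inflammasome, a protein platform that activates caspase-1, is needed to cleave it, whereas the IL-1 alpha precursor is already active. Il1rn encodes the IL-1 receptor antagonist, which occupies IL-1R1 without signalling, and Il18 encodes IL-18, another caspase-1 substrate, which drives interferon gamma production in lymphocytes and is held in check by the secreted decoy IL-18BP.

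All values are FPKM as deposited, a level per kilobase of transcript and relative to all fragments mapped in that library, so that levels of different genes can be set side by side per length. Differences are on log2(FPKM + 1), folds are plain ratios of FPKM, and higher or lower means by at least 2-fold on that log2 scale. Shares of all genes refer to the 9795 genes whose mean over the libraries reached 1 FPKM, which all 4 members passed. Depth was estimated at 18.8 to 19.5 M reads per library (M, megareads), and the 95% Poisson intervals given with some levels rest on that estimate and cover counting error only. The median gene of the 9795 shifted by -0.70 (log2) between the 4 h and 0 h libraries, and by -0.11 between those of 24 h and 0 h. The 10 macrophage markers, among them Adgre1, Cd68 and Csf1r, summed to between 3165 and 3564 FPKM in every library. The 5 listed lymphoid markers stayed below 1 FPKM throughout. Since 1 protocol field of the labels speaks of dendritic cells, their markers were read too. Of 8 listed, Flt3, Zbtb46, Clec9a and Xcr1 stayed below 1 FPKM in every library, and Siglech and Dpp4 reached at most 1.27 and 1.08 FPKM. Itgax, which macrophages also express, had 44.0 FPKM (0 h), 30.8 (4 h), 18.3 (8 h), 15.02 (12 h) and 4.65 (24 h), and Ccr7 1.2, 4.82, 14.8, 11.5 and 9.13 FPKM at these times. The 5 stromal markers summed to between 4.28 and 11.4 FPKM. Of these, Pdgfrb had 0.32 FPKM (0 h), 7.09 (4 h), 7 (8 h), 3.4 (12 h) and 0.41 (24 h). The others, Col1a1, Col1a2, Col3a1 and Dcn, were lower at 4 h than at 0 h.

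Il1a (gene 16175) and Il1b (gene 16176) lie next to each other on chromosome 2, both on the minus strand, with 54597 bases between them in GENCODE M21 (GRCm38). Il1rn (gene 16181) is on the same chromosome, at 24336860 to 24351491, and Il18 (gene 16173) on chromosome 9, at 50554700 to 50581841 (RefSeq, GRCm38.p6). The promoter windows of the 3 members that differed the most from 0 h are shown because in the 4 h library each exceeded its resting level many times over, after which Il1rn took another course than the agonists. RefSeq windows were found for 4 of 4 members. They run from 250 bases before to 50 after the start site on the gene's own strand, from RefSeq (GRCm38.p6), and capitals mark matches to the motifs named after them. For Il1rn, which has several windows, the one shown lies by the GENCODE M21 starts of its 162-codon and 178-codon forms, at 24345288 and 24345310.
Il1a, chr2:129309923-129310222, minus strand: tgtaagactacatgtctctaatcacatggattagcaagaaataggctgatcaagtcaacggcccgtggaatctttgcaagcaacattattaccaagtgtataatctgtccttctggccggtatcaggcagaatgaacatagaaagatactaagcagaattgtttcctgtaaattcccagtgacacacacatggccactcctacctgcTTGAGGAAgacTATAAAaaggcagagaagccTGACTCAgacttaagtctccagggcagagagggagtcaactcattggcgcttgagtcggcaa
Il1b, chr2:129371090-129371389, minus strand: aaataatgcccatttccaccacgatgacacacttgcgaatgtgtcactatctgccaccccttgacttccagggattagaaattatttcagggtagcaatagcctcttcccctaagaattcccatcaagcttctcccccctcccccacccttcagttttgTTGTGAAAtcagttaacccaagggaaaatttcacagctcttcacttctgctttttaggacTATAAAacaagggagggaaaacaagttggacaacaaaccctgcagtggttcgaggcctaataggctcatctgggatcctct
Il1rn, chr2:24345041-24345340, plus strand: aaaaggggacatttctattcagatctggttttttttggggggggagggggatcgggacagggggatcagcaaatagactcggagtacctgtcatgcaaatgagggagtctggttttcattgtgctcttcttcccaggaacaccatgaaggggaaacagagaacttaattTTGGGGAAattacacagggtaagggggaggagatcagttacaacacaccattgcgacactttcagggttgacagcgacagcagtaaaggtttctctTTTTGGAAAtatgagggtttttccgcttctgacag

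Both agonist windows held the TATA box letters TATAAA on the gene's strand, starting at -32 in Il1a and -31 in Il1b (the start site is 0), which 8.27% of 21238 windows of protein-coding genes do. The Il1rn window and the Il18 window lacked these letters. The Il18 window lies by the start of its 78-codon form, at 50554827. Its 192-codon forms start at 50565374 and 50575273, where no window was searched. The C/EBP letters TTNNGNAA, searched on both strands, were in the Il1a window at -43 and the Il1b window at -91. In the Il1rn window they began at -81, and in 2 overlapping matches at 15 and 16, while 37.3% of all windows held a match. Il1a also had the PU.1 letters GAGGAA at -41, inside its C/EBP match, against 27.4% of windows on either strand, and the AP-1 letters TGANTCA at -12, against 6.99%. The NF-kappaB motif (4.81% of windows) and the interferon response motif (3.34%) were in none of the member windows, which says only that those letters are not in these 300 bases. Another Il1rn window, at 24345121 to 24345420, overlaps the one shown. Counted from its start site the same C/EBP matches lie at -161, -65 and -64, so their place depends on the window. A farther window of Il1rn, by the starts of its 159-codon and 52-codon forms, held the AP-1 letters at -141. The table gives 1 value per gene, so the forms of Il1rn were not separated.

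Il1b had the largest difference from 0 h of the 4 genes at every time. At 4 h its difference on log2(FPKM + 1) was the largest positive one of all 9795 genes. That rank depends on the added 1, since Ptgs2 had a larger plain ratio, with 0.55 FPKM (0 h) and 658 (4 h). The level of Il1b was 2.5 FPKM (0 h), 2323 (4 h), 1104 (8 h), 1031 (12 h) and 389 (24 h). The 4 h value rests on about 57777 reads, and that of 0 h on about 63, with an interval of 1.92 to 3.20 FPKM. Il1b was thus near the floor in resting cells, highest at 4 h, almost level between 8 and 12 h, and still far above 0 h at the end. Against 0 h the log2 difference was 9.37 at 4 h and 6.80 at 24 h, a 156-fold ratio at 24 h. It ranked 19 from the top of all listed genes by FPKM at 4 h, 45 (8 h), 49 (12 h) and 132 (24 h), against 8665 at 0 h.

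Il1a followed a similar course at a lower level. It had 1.25 FPKM at 0 h (0.917 to 1.67), 586 (4 h), 222 (8 h), 188 (12 h) and 59.1 (24 h). Its log2 difference from 0 h was 8.03 at 4 h, rank 10 among the 9795 genes, and 4.74 at 24 h. The 24 h library stood at 10.1% of the highest Il1a level and at 16.8% of the highest Il1b level. Within a library, Il1b exceeded Il1a 2.0-fold (0 h), 3.97-fold (4 h), 4.98-fold (8 h), 5.48-fold (12 h) and 6.59-fold (24 h). The ratio within a library does not depend on how that library was scaled, and it was larger at each later time. The 0 h ratio rests on about 46 Il1a reads and 63 Il1b reads.

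Il1rn, the antagonist, was already present at 0 h and reached its highest level later than the agonists. Its level was 12.7 FPKM (0 h), 893 (4 h), 2573 (8 h), 2170 (12 h) and 722 (24 h). At 4 h it stood at 34.7% of its 8 h level, and at 8 h it was the gene with the 14th highest FPKM in the library. Its log2 difference from 0 h was 6.03 (4 h), 7.55 (8 h), 7.31 (12 h) and 5.72 (24 h). Il18 differed least from 0 h of the 4 genes at every time, with 8.4 FPKM (0 h), 44.8 (4 h), 68.8 (8 h), 48.9 (12 h) and 12.8 (24 h). Like Il1rn it was highest at 8 h, with an 8.19-fold ratio to 0 h there, but at 24 h the ratio was 1.52. The 24 h interval of Il18, 11.1 to 14.7 FPKM, and its 0 h interval, 7.03 to 9.96 FPKM, did not overlap.

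**Figure D1:**
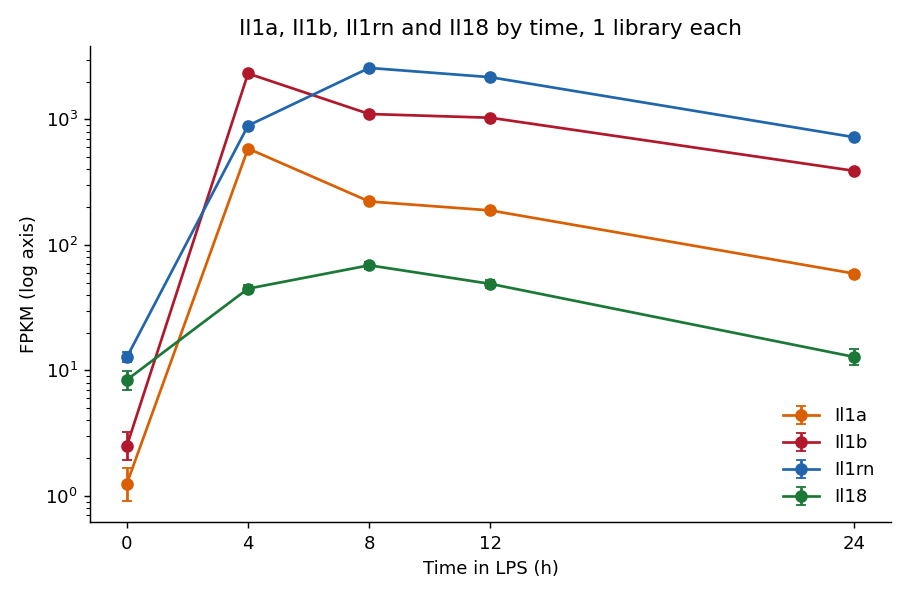
Levels of the 4 genes in FPKM (log axis) against hours in LPS, 1 library per time, with 95% Poisson intervals as bars. Il1a and Il1b are highest at 4 h, Il1rn and Il18 at 8 h, and the lines of Il1rn and Il1b cross between 4 h (893 and 2323 FPKM) and 8 h (2573 and 1104 FPKM).

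Counted against 0 h, 4 of 4 members were at least 2-fold higher at 4 h, where 12.2% of all genes were. At 8 h it was again 4 of 4, against 12.0% of genes, with 0 lower, against 28.9%. At 12 h it was 4 of 4, against 12.3%, with 0 lower, against 21.5%. At 24 h 3 of 4 were higher, against 11.3% of genes, and Il18 was within 2-fold with a log2 difference of 0.55. That call depends on the scale, since the Il18 difference at 24 h was 1.41 once the trend of differences with transcript length was removed. Of the 1197 genes at least 2-fold higher at 4 h, 56.6% had their highest level at 4 h, as Il1a and Il1b did. Another 21.6% had it at 8 h, as Il1rn and Il18 did. These genes were picked by their 4 h level in the same libraries, which favours 4 h as the highest time. The shares thus do not show whether the members' times were typical. Of all genes, 12.4% were highest at 4 h and 6.77% at 8 h.

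The agonists and the antagonist went opposite ways from 4 to 8 h. The log2 difference of 8 h from 4 h was -1.40 for Il1a and -1.07 for Il1b, making 2 of 4 members at least 2-fold lower, where 3.88% of all genes were. Il1rn was higher by 1.53, the 1 member at least 2-fold higher, against 5.23% of genes, and Il18 was within 2-fold at 0.61. From 8 to 12 h 0 of 4 members differed by 2-fold in either direction, where 2.58% of genes were higher and 0.939% lower, and their log2 differences lay between -0.10 for Il1b and -0.48 for Il18.

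From 12 to 24 h all 4 members were at least 2-fold lower, where 3.50% of genes were, and 0 of 4 higher, against 3.42%. The log2 difference was -1.66 for Il1a, -1.40 for Il1b, -1.59 for Il1rn and -1.85 for Il18, while the median gene was higher by 0.22. Counted from the lowest difference in that step, Il18 ranked 65, Il1a 90, Il1rn 105 and Il1b 151 of 9795. Genes that had parted at 8 h thus had like differences in this last step. Per hour, Il1a changed by -0.35 from 4 to 8 h, by -0.06 from 8 to 12 h and by -0.14 from 12 to 24 h, so its decline was not even. Il1b showed the same order, with -0.27, -0.02 and -0.12 per hour.

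Over the longer span, 24 h against 4 h, 3 of 4 members were lower, where 8.19% of genes were, and 0 were higher, against 25.0%. Il1a had 59.1 FPKM at 24 h and 586 at 4 h, a log2 difference of -3.29, Il1b -2.57 and Il18 -1.73. Il1rn, with 722 FPKM at 24 h and 893 at 4 h, was within 2-fold at -0.31.

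**Figure D2:**
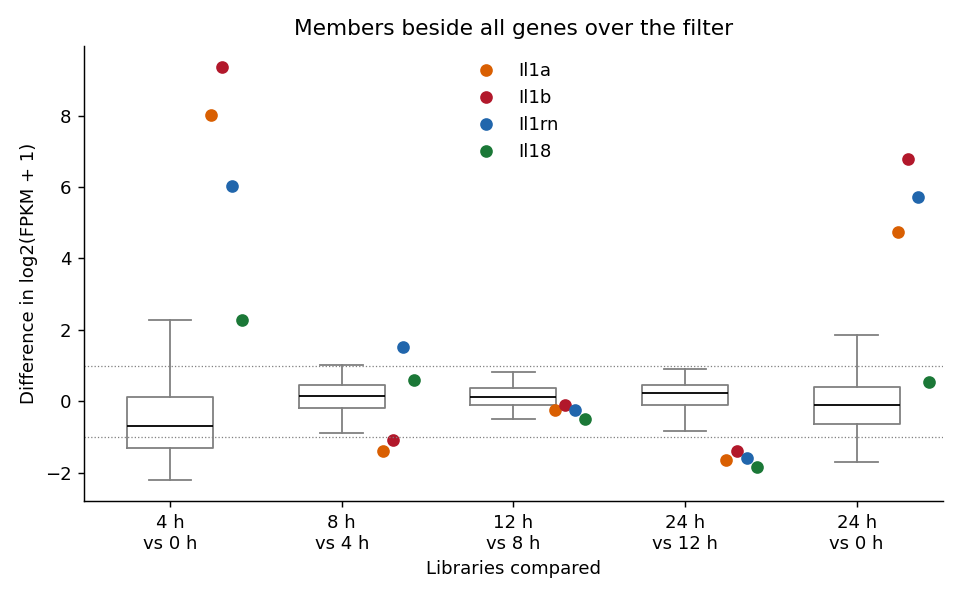
Differences in log2(FPKM + 1) of the 4 genes (coloured points) for 5 pairs of libraries, beside all 9795 genes over the filter (box, quartiles and median; whiskers, percentiles 5 to 95). The dotted lines mark 2-fold. The points lie above the box at 4 h vs 0 h, on both sides of it at 8 h vs 4 h, and below it at 24 h vs 12 h, from -1.40 to -1.85.

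The balance of antagonist to agonist transcripts turned over between 4 and 8 h. Il1rn was 3.39 times the sum of Il1a and Il1b at 0 h, 0.307 times (4 h), 1.94 times (8 h), 1.78 times (12 h) and 1.61 times (24 h). Only the 4 h library, of the 5, had less Il1rn than agonist transcript, by 3.26-fold, and no library in LPS reached the 0 h ratio, whose agonist levels rest on few reads. The antagonist protein is known to be needed in large excess over IL-1 to block it, and the protein ratio was not measured here. Against Il1b alone the ratio was 2.33 at 8 h and 0.384 at 4 h, so the turn does not rest on Il1a. Against Il1a alone Il1rn was in excess in every library, by 1.52-fold at 4 h and by 10.2-fold to 12.2-fold in the other 4.

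IL-18 and its decoy showed another course. Il18bp had 13.2 FPKM (0 h), 37.8 (4 h), 85.1 (8 h), 97.5 (12 h) and 127 (24 h), higher at each later time. The ratio of Il18bp to Il18 was 1.57 (0 h), 0.842 (4 h), 1.24 (8 h), 1.99 (12 h) and 9.90 (24 h). The 24 h library had the highest decoy to cytokine ratio of the 5, and the 4 h library again the lowest.

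**Figure D3:**
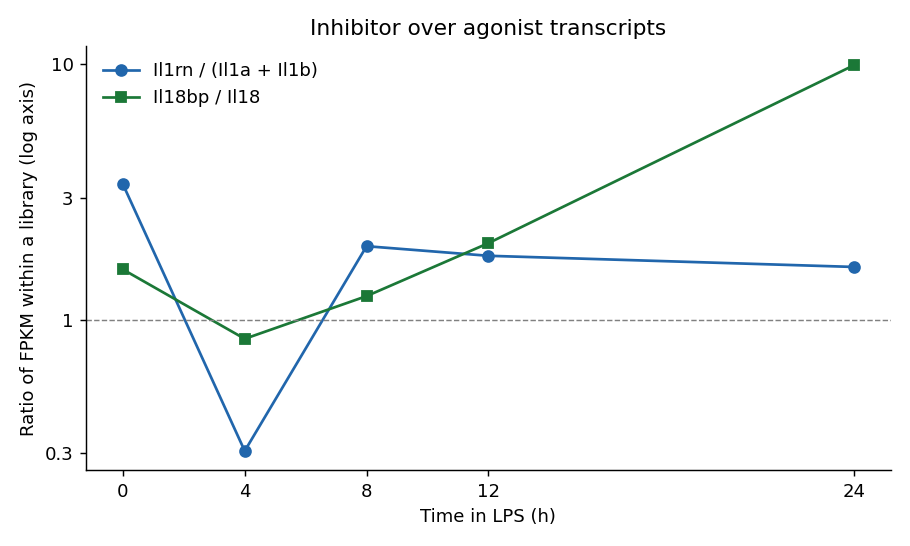
Ratios of FPKM within each library (log axis) against hours in LPS, 1 library per time, for Il1rn over Il1a + Il1b (circles) and Il18bp over Il18 (squares); the dashed line marks equal levels. Both ratios are lowest at 4 h, 0.307 and 0.842, and at 24 h the first is 1.61 and the second 9.90.

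AUUUA repeats in 3′ untranslated regions are known binding letters of Zfp36 and related proteins that shorten the life of cytokine mRNAs. In the transcript with the longest coding sequence (GENCODE M21), the region of Il1b, 459 nt long, held 4 AUUUA, a number that 2.89% of 1350 other listed genes with a region of like length reached. Il1a had 3 in 1101 nt, reached by 32.5% of 1914 others, Il18 had 1 in 123 nt, reached by 19.1% of 513, and Il1rn had 0 in 1306 nt, where 81.9% of 1926 others had at least 1. The windows richest in AUUUA in both agonists are shown because these are the members highest at 4 h, with AUUUA in capitals.
Il1b, chr2:129364802-129364831, minus strand: cuuaccuAUUUAUUUAuguAUUUAuugauu
Il1a, chr2:129300103-129300132, minus strand: ucuauguAUUUAuaaauauAUUUAugauaa
The 3 AUUUA of the Il1b window include 2 that overlap by a base. AUUUA with UU on both sides, a longer form of the element, was in 0 of the 4 member regions, against 1.36% to 7.37% of the other genes' regions of like length. The count of 0 for Il1rn holds for its 178-codon form, which ends at 24350936. The 159-codon form runs on to 24351494, and its region was not searched. From 4 to 8 h Il1rn had a log2 difference of 1.53, against -1.40 for Il1a and -1.07 for Il1b. From 12 to 24 h Il1rn had -1.59, against -1.66 and -1.40. Transcript stability was not measured, and the part of these letters in the differences was not tested.

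Some genes on the opposite strand overlap the members by their whole spans, introns included. The antisense gene Il1bos overlaps Il1b by 1243 bases, and Gm14023 overlaps Il1a, and neither was analysed here. Tex12 and Bco2 overlap the span of Il18, which had 8.4 to 68.8 FPKM. Both end before the starts of its 192-codon forms, at 50565374 and 50575273. Tex12 had 0 FPKM (0 h), 1.56 (4 h), 1.53 (8 h), 0.61 (12 h) and 0.26 (24 h). Bco2 had 0.8, 3.53, 3.36, 3.76 and 1.81 FPKM at these times. Both were thus higher in every LPS library than at 0 h, as Il18 was. Overlap of exons was not examined, and whether the counting used strand is not given in the sources used here. Where exons overlap, reads of such pairs may not have been told apart.

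Marker genes of neutrophils, which also make IL-1 beta and its antagonist, were detected in these cultures. The 8 listed of 9 neutrophil markers summed to 342 FPKM (0 h), 324 (4 h), 255 (8 h), 182 (12 h) and 60.8 (24 h). S100a8 and S100a9 held most of this sum in every library, so it says little of the other markers. S100a9 had 7.14 FPKM at 24 h, against 159 at 4 h and 167 at 0 h, and Mpo, a granule enzyme, was listed at 0 at 24 h. The sum was thus lower at each later time, also in the step from 12 to 24 h, in which all 4 members were lower, but single markers took other courses. S100a8 had 117 FPKM (0 h), 108 (4 h), 144 (8 h), 125 (12 h) and 46.6 (24 h), and Camp was highest at 4 h, with 6.78 FPKM. Ly6g, a defining surface marker of neutrophils, had 0.12 FPKM (0 h), 0.19 (4 h), 0.53 (8 h), 1.14 (12 h) and 3.71 (24 h), the opposite order to the sum. The sum of the 8 dendritic cell markers was also lower at each later time, 47.7 FPKM (0 h), 38.4 (4 h), 35.9 (8 h), 29.1 (12 h) and 15.2 (24 h). That order came from Itgax, which macrophages also express, with 44.0 FPKM at 0 h and 4.65 at 24 h. Ccr7 went the other way, with 1.2 FPKM at 0 h and 9.13 at 24 h. The part of either list in the member differences was not tested, and in bulk RNA fewer cells of a type and less RNA per cell cannot be told apart.

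The genes whose course was most like each member were taken by the root mean square distance between log2(FPKM + 1) profiles over the 5 libraries, each centred on its own mean. For Il1a they were the chemokine gene Cxcl2 (distance 0.25), the activation antigen gene Cd69 (0.28) and Tnf (0.41). For Il1b they were the guanylate-binding protein gene Gbp5 (0.34), which belongs to a family of similar genes, the chemokine gene Cxcl10 (0.35) and Ptgs2 (0.37), the inducible cyclooxygenase. Il1rn was nearest to AA467197 (0.17), Tarm1 (0.31), a receptor of myeloid cells, and the lectin receptor gene Clec4e (0.34), with Clec4e at 12.7 FPKM (0 h), 776 (4 h), 1576 (8 h), 1529 (12 h) and 855 (24 h). Il18 was nearest to the costimulatory gene Cd86 (0.21), the protease gene Htra4 (0.23) and Ext1 (0.23), an enzyme of heparan sulfate synthesis. The agonists were 0.73 apart, which made Il1b the gene 14th nearest to Il1a of 9794, and no member was among the 3 genes nearest to another. These distances describe 5 points each and say nothing of shared control.

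Receptors for these cytokines were at low levels in the macrophages. Of 11 receptor and decoy genes 9 were listed and 3 passed the filter, Il1rap, Il1rl2 and Il18bp. Il1r1, the signalling receptor for both agonists, had 0.10 FPKM (0 h), 0.14 (4 h), 0.25 (8 h), 0.96 (12 h) and 2.02 (24 h), so its level stayed near the floor while Il1b was highest. The decoy receptor gene Il1r2 was at 0.24 FPKM at 4 and 8 h and at 1.04 and 1.03 FPKM at 12 and 24 h. Il1rap, the accessory chain that IL-1R1 needs to signal, had 5.51 FPKM in the 4 h library against 1.26 at 0 h, a log2 difference of 1.53, and 2.57 FPKM at 24 h. Il1rl2, the receptor for IL-36 cytokines, had 2.47 FPKM at 24 h and 0.17 at 4 h, against 0.25 at 0 h. The IL-18 receptor chain gene Il18r1 was at most 0.08 FPKM in any library. The other chain gene, Il18rap, had 0.28 FPKM (0 h), 1.8 (4 h), 0.39 (8 h), 0.28 (12 h) and 0.21 (24 h), and its mean was under the filter.

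Signalling genes below the receptor, which TLR4 shares through MyD88, went both ways at 4 h. Of 17 genes 16 passed the filter, and 5 of them were higher and 4 lower in the 4 h library than in the 0 h library, where 12.2% and 38.1% of all genes were. Their median log2 difference was 0.06, against -0.70 over all genes. Peli1, a ubiquitin ligase, had 194 FPKM at 4 h and 11.2 at 0 h, and the kinase gene Irak2 101 and 19.8, whereas Peli2 had 0.73 and 7.97 and the adaptor gene Tab1 1.32 and 8.34. After centring each library on its median gene, 7 were higher and 2 lower, where 21.5% and 13.4% of all genes were. At 24 h 5 were higher and 1 lower than at 0 h, where 11.3% and 14.5% of all genes were, with a median of 0.61 against -0.11 over all genes. Peli1 then had 52.7 FPKM at 24 h, a log2 difference of 2.14 from 0 h, Peli2 1.75 FPKM (-1.71) and the kinase gene Irak1 23.1 FPKM against 35.6 at 0 h (-0.60). Irak3, a kinase-like inhibitor of the pathway, had the largest difference of the list at 24 h (2.70), with 8.55 FPKM (0 h), 38.8 (4 h), 88.4 (8 h), 101 (12 h) and 60.9 (24 h).

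Genes of the inflammasome and of precursor processing differed by member too. Of 19 genes 18 passed the filter, with 7 higher and 4 lower at 4 h than at 0 h, where 12.2% and 38.1% of all genes were. At 24 h 6 were higher and 3 lower than at 0 h, where 11.3% and 14.5% of all genes were. Their median log2 difference was -0.31 at 4 h, against -0.70 over all genes, and 0.03 at 24 h, against -0.11. Nlrp3, the inflammasome sensor gene, had a course like the agonists, with 6.27 FPKM (0 h), 174 (4 h), 63.2 (8 h), 44.5 (12 h) and 22.7 (24 h). Casp1, the protease gene for both IL-1 beta and IL-18 precursors, was highest at 8 h as Il18 was, with 58.2 FPKM (0 h), 204 (4 h), 305 (8 h), 254 (12 h) and 199 (24 h). Mefv, which encodes the sensor pyrin, had 93.7 FPKM at 4 h and 52.3 at 24 h, against 4.32 at 0 h, the largest difference of the list at 24 h (3.32), and Casp4, the caspase for intracellular LPS, 107 at 24 h and 12.2 at 0 h. The ATP receptor gene P2rx7 had 3.48 FPKM in the 4 h library against 17.4 at 0 h, and Txnip 27.0 against 102. Pycard, which encodes the adaptor ASC, had 8.29 FPKM in the 24 h library against 20.9 at 0 h, and Dfna5, a gasdermin gene, 1.23 against 4.66.

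From 12 to 24 h, 0 of the 16 signalling genes and 0 of the 18 inflammasome and processing genes were at least 2-fold lower or higher. Since 3.50% of all genes were lower and 3.42% higher in that step, a count of 0 in lists this short is near the background. With libraries centred on the median gene 1 of each list was lower, where 5.67% of all genes were. Their medians in that step were 0.37 and -0.15, against 0.22 over all genes.

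Of 6 other ligands of the family 3 were listed. Il1f9, which encodes IL-36 gamma, had 3.2 FPKM (0 h), 9.72 (4 h), 16.5 (8 h), 30.2 (12 h) and 30.6 (24 h), so it was highest when the 4 members were past their highest levels. Il1f6, for IL-36 alpha, had 0.06 FPKM (0 h), 0.25 (4 h), 2.76 (8 h), 5.01 (12 h) and 1.68 (24 h). Il33 was listed at 0 at 0 h and at most at 0.30 FPKM later.

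**Figure D4:**
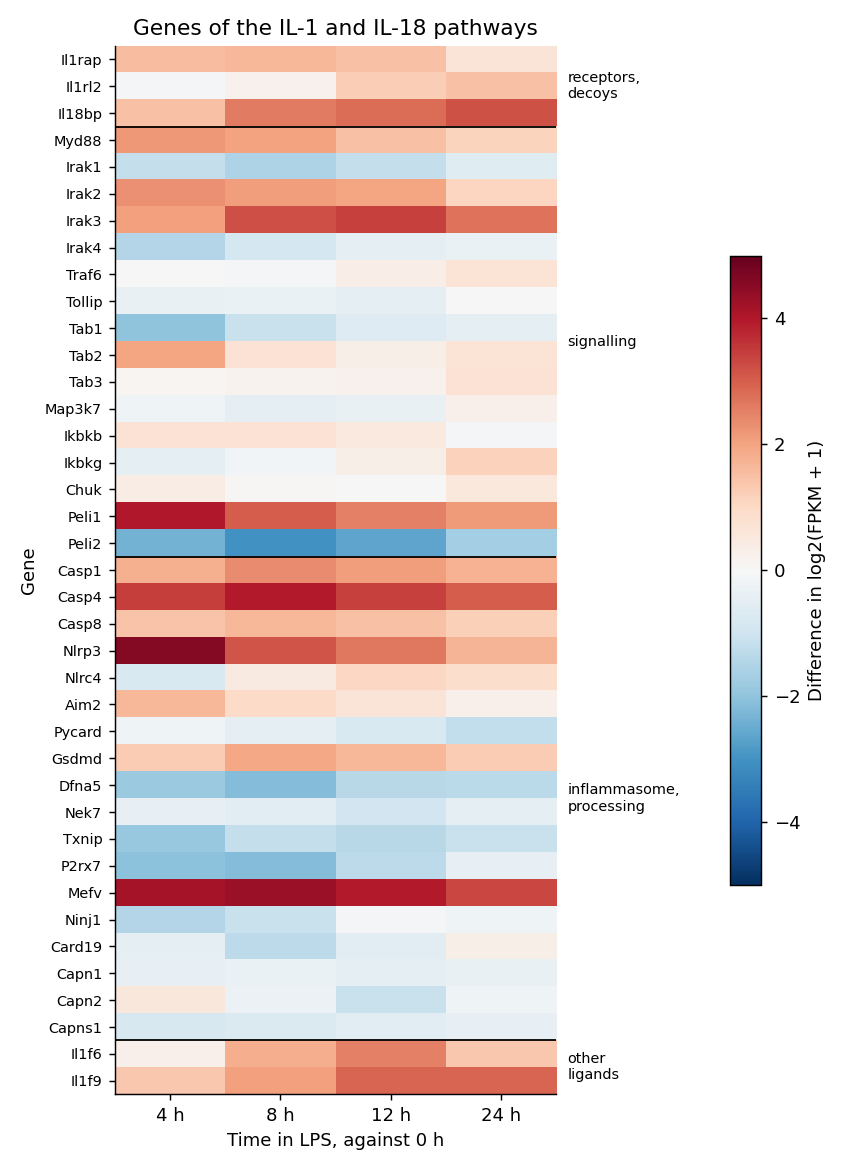
Differences in log2(FPKM + 1) from 0 h (colour) at 4, 8, 12 and 24 h for the receptor, signalling, inflammasome and ligand genes that passed the filter, 1 library per time. Nlrp3 is darkest at 4 h, and Il18bp and Il1f9 have their highest levels at 24 h, 127 and 30.6 FPKM.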

How the data were processed

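RNA sequencing libraries of 5 time points, 1 each, were used. Per the file headers, the authors deposited gene-level FPKM in 1 table with a column for each library. The submitters' processing notes name Bowtie2, RSEM and GRCm38 but not their roles; annotation, filters and read counts are not stated. RSEM-type FPKM divide reads of similar genes by estimate, and a value is lower when other genes take more of the library.

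Differences on log2(FPKM + 1) understate the fold of low genes. The filter was a mean of 1 FPKM, and 3544 genes were below it. Since there was 1 library per time, no test was run and 8 pairs of libraries were described. Depth came from the steps between low FPKM of genes with 1 transcript of 400 to 2500 nt, less 40 nt. Each library gave 107 to 121 such values, and 49.2% to 55.4% came out whole (tolerance 0.04 reads, or the rounding where that is wider), against 24.1% to 25.1% by chance at a fixed step. The step was chosen for the best match, within 10 to 40 M reads (megareads), so depth is an estimate, and whole reads were not recovered for most genes. The length trend used GENCODE M21 lengths, known for 96.8% of genes. Difference and call steps were tested on simulated data with counting error only and large changes in few genes. The simulation had no shift between libraries and no length trend, so it does not cover those features of these data.

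Members, 4 gene lists and marker lists were chosen with earlier results of these data known. The monocyte marker list is not reported here. From each list the 2 largest differences in each direction at 4 h and 24 h were named, and for each member its 3 nearest profiles. Il1r1, Il1r2, Il18r1, Il18rap, Il33, Casp1 and the named stromal markers were picked after their values were seen. So were S100a8, S100a9, Camp, Ly6g, Mpo, the named dendritic cell markers, and Il18bp and Nlrp3 at every time. Python 3.11.15, pandas 2.3.3, scipy 1.17.1 and statsmodels 0.14.6 were used.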

Additional observations from a re-analysis of the deposited data

How the results depend on the processing

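The differences of the 4 genes in 8 pairs of libraries kept their sign in 192 of 192 recalculations under 6 alternatives (pseudocounts of 0.1 and 5, libraries centred on the median gene, equal sums with and without the 50 highest genes, length trend removed), and 191 also kept their side of 2-fold, the exception being Il18 at 24 h against 0 h, 1.41 with the length trend removed. At a 4-fold threshold 0 of 4 were higher and 0 lower at 8 h vs 4 h (1 and 2 at 2-fold), and 0 were lower at 24 h vs 12 h (4 at 2-fold), and a plain ratio of FPKM, chosen after seeing the data, left that 4. Taken over Il1b alone, Il1rn stood at 5.09 (0 h), 0.384 (4 h), 2.33 (8 h), 2.10 (12 h) and 1.85 (24 h), and over Il1a alone at 10.2, 1.52, 11.6, 11.5 and 12.2 at those times. Centred libraries had 2 signalling genes lower at 4 h vs 0 h (4 as deposited). The 3 genes nearest to a member depended on the measure: by Pearson correlation 0 remained for Il1a, Il1b and Il1rn and 1 for Il18, and with a pseudocount of 0.1 there remained 2 for Il1a, 3 for Il1b and 1 each for Il1rn and Il18. Counts over all genes moved more (as deposited in parentheses). With libraries centred on the median gene they were 2108 higher (1197) and 1315 lower (3729) at 4 h vs 0 h, 1462 lower (2831) at 8 h vs 0 h, 1264 lower (2107) at 12 h vs 0 h, 339 higher (512) at 8 h vs 4 h, 158 higher (253) at 12 h vs 8 h, 148 higher (335) and 555 lower (343) at 24 h vs 12 h and 945 higher (2448) and 1503 lower (802) at 24 h vs 4 h. With the length trend removed they were 1874 higher (1197) and 1126 lower (3729) at 4 h vs 0 h, 1194 lower (2831) at 8 h vs 0 h, 939 lower (2107) at 12 h vs 0 h, 914 lower (1424) at 24 h vs 0 h, 333 higher (512) at 8 h vs 4 h, 144 higher (253) at 12 h vs 8 h, 153 higher (335) at 24 h vs 12 h and 933 higher (2448) and 1408 lower (802) at 24 h vs 4 h. With a pseudocount of 5 they were 1976 lower (3729) at 4 h vs 0 h, 1537 lower (2831) at 8 h vs 0 h, 1188 lower (2107) at 12 h vs 0 h, 715 higher (1106) and 841 lower (1424) at 24 h vs 0 h, 199 higher (512) and 194 lower (380) at 8 h vs 4 h, 75 higher (253) and 51 lower (92) at 12 h vs 8 h, 97 higher (335) and 198 lower (343) at 24 h vs 12 h and 839 higher (2448) at 24 h vs 4 h. With a pseudocount of 0.1 they were 1019 higher (512) at 8 h vs 4 h, 594 higher (253) and 140 lower (92) at 12 h vs 8 h and 634 higher (335) at 24 h vs 12 h. The cause was not tested. No paired analysis was possible because each time point had 1 library. Depth limits the 0 h levels of Il1a and Il1b, about 46 and 63 reads.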
